A study of Mus musculus with 8 samples.

Results

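Homozygous Tnnt2 knock-in mice (KI) were compared with wild-type mice (WT) at birth, the earliest age in a series of 8 single-colour arrays of mouse heart ventricle. The comparison took every array whose labels gave the age of 0 day: 2 WT and 2 KI arrays, or 4 of the 8. The KI animals are homozygous for ΔK210, the loss of 1 lysine from cardiac troponin T, the product of Tnnt2, and the series presents them as a neonatal model of dilated cardiomyopathy. The WT animals are given only as wild type, with no strain, sex or litter for either genotype. Neither group had a treatment. The tissue is given as ventricle, the series text adds left ventricle, and the ventricles of 3 animals were combined for a comparison. Whether the 2 arrays of a genotype held separate pools is not given. Each error and p therefore measures array-to-array spread, and how much of it is technical is not known.

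Cardiac troponin T fixes the troponin complex to tropomyosin on the thin filament and passes the calcium signal on to the contractile proteins. Deletion of this lysine is a known cause of inherited dilated cardiomyopathy in people and lowers the calcium sensitivity of force. At birth the heart takes on a higher pressure load and more oxygen, cardiomyocytes still divide, and blood and immune cells remain in the tissue. Because the tissue was measured in bulk, fewer cells of a type and less RNA per cell cannot be told apart in any value here.

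A level is the log2 signal of a gene's brightest probe minus the 75th percentile of its array, so that 1 unit is a doubling. A difference is the KI mean minus the WT mean on this log2 scale, followed by ± its standard error from limma, with n = 2 arrays per genotype. That percentile was a signal of 440 to 466, 58.9% to 63.1% of probes were well above background, and no probe was saturated. The number of arrays limits the precision. The scanner software marked KI replicate 1 for evaluation and the others as in range, and both records of the samples named the same 4 birth arrays. Slide columns 1 and 2 held WT and columns 3 and 4 held KI, so effects of genotype and of slide column cannot be told apart. Pearson's r across the 15426 genes tested was 0.993 between the WT arrays and 0.993 between the KI arrays, against 0.989 to 0.994 between genotypes. Principal component 1 took 48.2% of the variance and placed the arrays in their slide order, from WT replicate 1 to KI replicate 2. KI replicate 2 also had the highest level of the Y-linked genes Ddx3y, Eif2s3y, Kdm5d and Uty and the lowest of Xist, at -1.87 against -1.09 to -0.92 on the other 3. Eif2s3y stood at 0.44 and 1.88 on the KI arrays and at 1.04 and 1.07 on the WT arrays. Whether the arrays of a genotype held separate pools was not tested.

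Ventricular markers stood high in both genotypes. Myl2, the ventricular regulatory light chain, stood at 8.80 and 8.80 in WT and at 8.70 and 8.69 in KI. Myh6, an adult-type cardiac myosin, stood at 8.84 and 8.77 against 8.62 and 8.54, and its second detected probe gave +0.06. Of 13 ventricular markers, 2 were higher (15.4%) and 4 lower (30.8%) in KI without overlap, against 16.7% and 15.3% of all genes. Their median difference was -0.03 (+0.04 with quantile normalization). Tnnt2 itself stood at 8.16 and 8.30 in WT and at 8.19 and 8.11 in KI, a difference of -0.08 ± 0.13 that turned to +0.045 with quantile normalization. Its genotypes overlapped, and its 1 probe reads the amount of transcript, not the deleted codon, so it checks no array's genotype.

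The first question was which transcripts differed between the genotypes. None of 15426 genes tested passed the threshold in limma after Benjamini-Hochberg adjustment (percent called 0), and 946 had an unadjusted p below 0.05. The lowest adjusted p was 0.0738, for Ctse. No exact permutation test of 2 arrays against 2 can go below a two-sided p of 0.333. Genes are therefore described by whether the 4 arrays overlap. Both KI arrays lay above both WT arrays for 2574 genes (16.7%) and below for 2359 (15.3%). Arrays in random order would on average leave a share of 0.333 of genes without overlap, both directions together. These 2 shares are therefore no measure of a genotype effect. The gap is the distance between the nearest arrays of the genotypes. It exceeded 0.5 for 132 genes higher in KI (0.856%) and 84 lower (0.545%). With another background correction, normexp, these counts were 32 and 25. Genes well above background on both arrays of only 1 genotype were tested too, so the filter itself favours their separation. They are in these counts and in those of the lists below.

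Interferon-stimulated genes are switched on by interferon, many through a short repeated element in their promoters, and they serve antiviral defence. Of 44 members tested, 42 were higher in KI on average. Both KI arrays lay above both WT arrays for 35 members (79.5%, against 16.7% of all genes) and below for 0. The median difference was +0.31, against +0.0012 over all genes. In limma 0 of 44 passed, with 18 at an unadjusted p below 0.05, against 946 of all 15426 genes. The list was chosen with earlier results of these arrays known, so its count is a description. The 3 promoters below belong to the members with the smallest p among those whose promoter holds the element, searched as GAAANNGAAA or its reverse complement TTTCNNTTTC on both strands, overlaps included. They are RefSeq sequences of build GRCm38.p6, from 250 bases before to 50 after the start of the gene, and capitals mark the element.
Ifit1 (chr19:34640639-34640938, + strand): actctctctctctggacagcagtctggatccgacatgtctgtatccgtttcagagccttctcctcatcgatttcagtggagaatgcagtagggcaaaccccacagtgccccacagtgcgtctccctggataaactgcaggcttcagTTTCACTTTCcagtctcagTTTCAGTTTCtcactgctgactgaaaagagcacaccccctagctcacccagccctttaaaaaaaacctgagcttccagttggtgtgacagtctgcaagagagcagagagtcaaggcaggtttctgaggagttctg
Igtp (chr11:58199306-58199605, + strand): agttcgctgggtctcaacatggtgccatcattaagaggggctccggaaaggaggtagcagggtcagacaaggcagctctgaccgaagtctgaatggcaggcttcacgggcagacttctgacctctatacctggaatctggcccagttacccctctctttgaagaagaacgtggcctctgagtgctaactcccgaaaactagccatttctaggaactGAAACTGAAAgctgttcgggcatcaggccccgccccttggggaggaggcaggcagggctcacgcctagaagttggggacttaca
Oas1a (chr5:120907476-120907775, - strand): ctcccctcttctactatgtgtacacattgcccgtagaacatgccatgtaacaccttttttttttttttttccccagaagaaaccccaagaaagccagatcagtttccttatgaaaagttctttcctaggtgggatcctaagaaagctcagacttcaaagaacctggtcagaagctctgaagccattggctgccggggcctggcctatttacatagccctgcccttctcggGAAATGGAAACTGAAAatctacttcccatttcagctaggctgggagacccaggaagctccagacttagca

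The element stood in a promoter of 16 of the 33 members tested that RefSeq's table holds (48.5%), against 447 of 12189 tested genes (3.67%) and 1131 of all 32851 promoters (3.44%). A match describes these letters only, and no match in this window says nothing about the factor. Usp18, which removes Isg15 from proteins, stood at -1.41 and -1.43 in WT and at -0.48 and -0.36 in KI, a difference of +1.00 ± 0.12 (adjusted p = 0.247). Oas2, a sensor of double-stranded RNA, stood at -1.002 and -1.09 against -0.13 and -0.26 (+0.85 ± 0.12). Both genes separated the genotypes by more than either pair of arrays differed.

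Ifit1, which binds foreign RNA, stood at -3.16 and -2.89 in WT and at -2.29 and -2.25 in KI, a difference of +0.76 ± 0.14. Ifi27, a mitochondrial interferon-induced protein, stood at 2.54 and 2.83 against 3.36 and 3.73, and its second detected probe gave +0.96. Irf7, the factor that amplifies the interferon response, stood at 2.38 and 2.51 against 2.93 and 3.001, and its second detected probe gave +0.52. The GTPase Igtp differed by +0.51 and the RNA sensor Oas1a by +0.46. Over the list, the median deviation from each gene's own mean was -0.20 and -0.10 on the WT arrays and +0.18 and +0.12 on the KI arrays, so neither KI array carried the pattern alone.

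**Figure D1:**
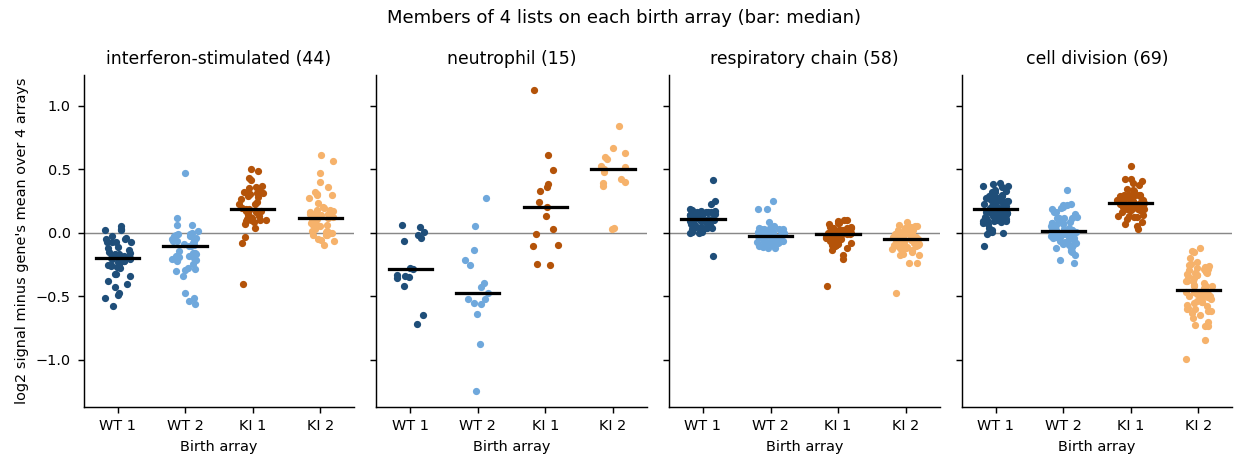
Each point is a member of 1 of 4 lists on 1 birth array, plotted as its log2 signal minus the mean of that gene over the 4 arrays, with a black bar at the list's median. Interferon-stimulated and neutrophil genes were higher on both KI arrays, respiratory chain genes varied little, and cell division genes were low on KI replicate 2 alone.

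Neutrophil genes, which encode granule proteins and chemoattractant receptors, also lay higher in KI. Both KI arrays lay above both WT arrays for 12 of 15 members tested (80%, against 16.7% of all genes), below for 0, and the median difference was +0.61 (+0.35 with normexp). The count and median include Mmp9 and Cxcr2, which entered the test through KI alone, where they were high. Among members well above background on all 4 arrays the median was +0.57. Retnlg, a resistin-like cytokine of neutrophils, stood at -1.80 and -1.67 in WT and at -0.65 and -0.48 in KI, a difference of +1.17 ± 0.13. S100a8, a subunit of calprotectin, stood at 1.42 and 1.20 against 2.14 and 2.28 (+0.90 ± 0.14). For both, the arrays of a genotype lay closer together than the genotypes did.

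Stfa2l1, a stefin-type protease inhibitor with close relatives in the genome that could share its signal, stood at 0.12 and -0.06 in WT and at 0.78 and 0.82 in KI. The gelatinase Mmp9 was well above background on both KI arrays and on neither WT array, which bounded it at 1.17-fold higher at least (normexp, +0.18). The chemokine receptor Cxcr2 was detected in the same way, but its background bound gave no fold. The median deviation of the list was -0.29 and -0.48 on the WT arrays and +0.20 and +0.50 on the KI arrays. It was above 0 on both KI arrays and larger on KI replicate 2.

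Acute phase and innate inflammation genes were mixed. Of 34 tested, 15 were higher (44.1%) and 4 lower (11.8%) in KI without overlap, against 16.7% and 15.3% of all genes, with a median of +0.17 (+0.11 with normexp). The higher count includes Fpr1, Ptgs2 and Il1b, which entered the test through KI alone. Fpr1, a formyl peptide receptor of phagocytes, was well above background in KI alone and at least 2.04-fold higher, a bound that normexp (+0.46) did not reach. Its relative Fpr2 stood at -2.02 and -1.84 in WT and at -1.21 and -1.41 in KI. Haptoglobin (Hp; +0.75 ± 0.18) and the iron-siderophore carrier Lcn2 (+0.61 ± 0.16) also did not overlap. Sele, the endothelial selectin that slows leukocytes on the vessel wall, lay the other way: it stood at -3.79 and -3.97 in WT and at -4.86 and -4.77 in KI (-0.94 ± 0.13; normexp, -0.30).

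Markers of other blood cells were counted too, and their part in the interferon and inflammation values was not tested. Of 12 lymphocyte markers, 8 were higher (66.7%) and 2 lower (16.7%) without overlap, against 16.7% and 15.3% of all genes (median +0.41, or +0.13 with normexp). Cd8b1 of cytotoxic T cells (+0.82 ± 0.22; normexp, +0.27), the B-cell gene Ms4a1 (+0.93 ± 0.30; normexp, +0.16), the granzyme Gzma (+1.42 ± 0.46) and the T-cell kinase Lck (+0.35 ± 0.14) did not overlap. Gzma differed most between the KI arrays, at -1.97 and -0.55. Ms4a1, which is in the count, was well above background on both KI arrays but only 1 WT array.

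Of 12 platelet markers, 7 were higher (58.3%, against 16.7% of all genes) and 0 lower without overlap (median +0.41, or +0.16 with normexp and +0.15 without KI replicate 2). The integrin Itga2b stood at -4.57 and -4.90 in WT and at -3.86 and -3.92 in KI, and the platelet chemokine Pf4 at 2.08 and 2.03 against 2.45 and 2.38. Gp9 (+0.50 ± 0.20) and Ppbp (+0.52 ± 0.24) had no overlap, and Gp1ba was detected in KI alone, at least 1.496-fold higher, a bound that normexp (+0.11) did not reach. Normexp also gave +0.16 for Itga2b. The count of 7 includes Gp1ba, which entered the test through KI alone. Erythroid markers had a median of +0.18 with 3 of 15 higher without overlap (20%, near the 16.7% of all genes), and the median was -0.09 without KI replicate 2. Alas2, the first enzyme of haem synthesis in red cells, stood at 1.39 and 1.53 against 1.85 and 2.52.

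Macrophage markers did not move as 1 group. Of 16, 6 were higher (37.5%) and 2 lower (12.5%) without overlap, against 16.7% and 15.3% of all genes, with a median of +0.25. The Fc receptor Fcgr1 (+0.61 ± 0.15), the actin-binding protein Aif1 (+0.76 ± 0.21), F13a1 (+0.43 ± 0.18) and the fractalkine receptor Cx3cr1 (+0.32 ± 0.14) lay above WT on both KI arrays. Lyve1, the hyaluronan receptor of resident macrophages and lymphatic vessels, stood at 0.26 and 0.38 in WT and at -0.41 and -0.39 in KI (-0.72 ± 0.12). Of 5 class II antigen presentation genes, 3 were higher (60%) and 0 lower without overlap. H2-Ab1 stood at -1.82 and -1.57 in WT and at -1.19 and -0.26 in KI, and H2-DMb1 differed by +0.35 ± 0.13.

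**Figure D2:**
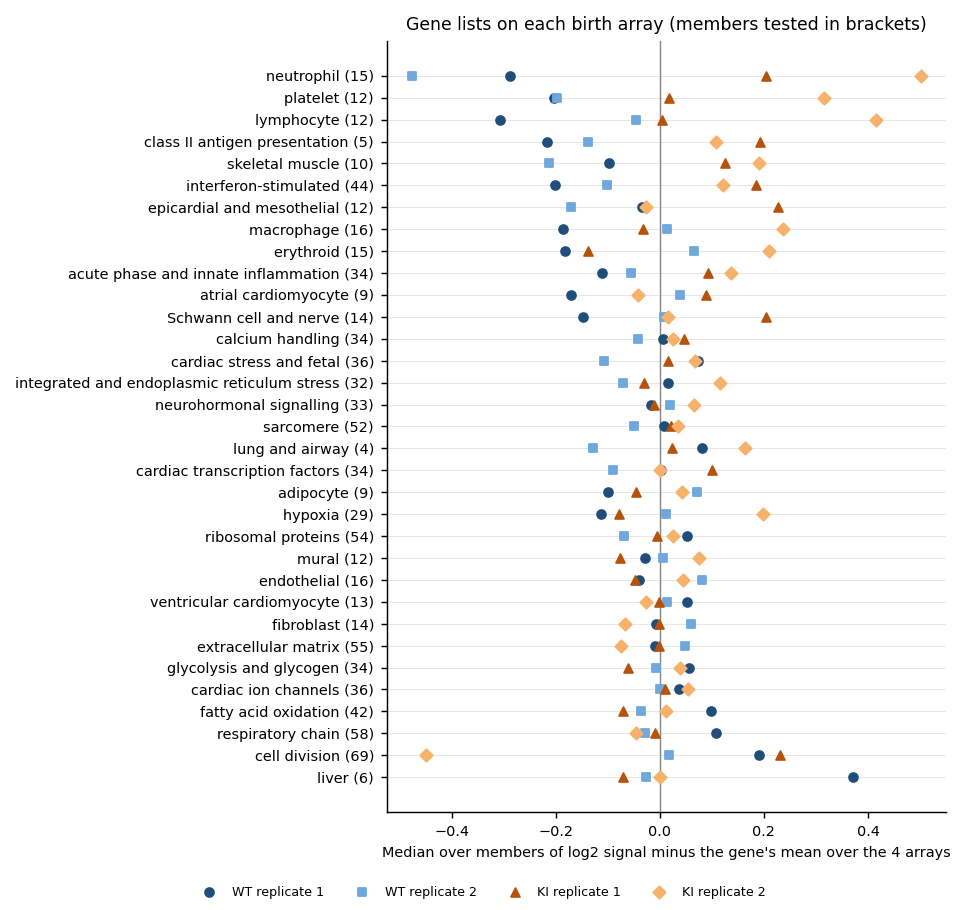
Each row is a gene list with the number of members tested in brackets, and each point is the list's median deviation, in log2 units, from the gene means on 1 birth array. For neutrophil, platelet, interferon-stimulated and class II genes both KI arrays lie to the right of both WT arrays. The same order holds for acute phase, lymphocyte and skeletal muscle lists. It also holds, with narrower margins, for Schwann cell, epicardial, sarcomere and calcium handling lists. Among lists set apart by 1 array are cell division, by KI replicate 2, and liver, respiratory chain and fatty acid oxidation, by WT replicate 1.

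Among the named genes well above background on all 4 arrays, Gpnmb and Spp1 had the widest gaps below WT. Spp1, which encodes the matrix cytokine osteopontin, stood at 1.40 and -0.34 in WT and at -2.14 and -3.37 in KI. Its difference of -3.29 ± 0.68 was a 9.76-fold lower level (adjusted p = 0.479; normexp, -2.40), and the arrays of each genotype were themselves more than 1 unit apart. Gpnmb, a lysosomal membrane glycoprotein of macrophages and melanocytes, stood at -0.66 and -1.71 against -4.08 and -4.50, 8.61-fold lower (-3.11 ± 0.37; normexp, -1.66). Mmp12, the macrophage elastase, was well above background on both WT arrays and on neither KI array, and at least 3.13-fold lower, although normexp (-0.58) did not reach this bound. All 3 were highest on WT replicate 1.

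Siglech, a receptor of plasmacytoid dendritic cells and microglia, stood at 6.80 and 6.71 in WT and at 5.75 and 5.55 in KI (-1.10 ± 0.13). Its other probe was not above background on all 4 arrays. The brightest probe's WT mean of 6.75 was near the 6.63 of the light chain Myl4, against 0.25 for the macrophage gene Cx3cr1. Whether this probe reads Siglech alone was not tested. The late-endosomal GTPase Rab7b stood at 0.25 and 0.16 against -1.53 and -1.69 (-1.82 ± 0.13; adjusted p = 0.0876). Arl8a, a GTPase that moves lysosomes along microtubules, stood at 2.13 and 2.21 against 0.48 and 0.33 (-1.76 ± 0.13; adjusted p = 0.0876). With normexp Siglech, Rab7b and Arl8a differed by -1.11, -1.43 and -1.64. Rab7b and Arl8a passed with normexp and with an intensity trend in the variance model, and Siglech passed with that trend.

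Kcnc2, a voltage-gated potassium channel of fast-firing cells, stood at -2.18 and -2.33 in WT and at -4.10 and -4.13 in KI (-1.86 ± 0.13; adjusted p = 0.0876). The secreted protein Wfdc18 stood at -1.66 and -1.84 against -3.55 and -3.98, 4.05-fold lower. Normexp gave -0.86 for Kcnc2 and -1.04 for Wfdc18. The protease inhibitor Cst6 (-1.11 ± 0.15), the Arf exchange factor Iqsec3 (-1.57 ± 0.33), Shisa4 (-1.02 ± 0.13), the lens filament gene Bfsp2 (-1.04 ± 0.15) and Cmtm2b (-1.05 ± 0.16; normexp, -0.53) completed the 12 widest gaps below WT. A second detected probe gave -0.95 for Shisa4 and -1.26 for Bfsp2. Where no second probe was detected, a value rests on 1 probe.

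Among the named genes well above background on all 4 arrays, Cntn2 had the widest gap above WT. It encodes a cell adhesion molecule of neurons and of the cardiac conduction system. It stood at -2.51 and -2.24 in WT and at -0.65 and -0.80 in KI, 3.12-fold higher (+1.64 ± 0.15; adjusted p = 0.218). Adcy1, a calmodulin-activated adenylyl cyclase, stood at -3.52 and -3.57 against -2.07 and -2.32 (+1.35 ± 0.14). Chil1, a secreted chitinase-like protein, stood at -4.71 and -4.56 against -3.32 and -3.49 (+1.22 ± 0.13). Adcy1 and Chil1 were dim, and normexp gave +0.74 and +0.33 for them.

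Nrg1, the ErbB ligand through which endothelium signals to cardiomyocytes, stood at -0.28 and -0.23 in WT and at 0.80 and 0.70 in KI, 2.00-fold higher (+1.00 ± 0.12). Its other detected probes gave +0.94 and +1.17, so 3 probes lay in 1 direction. Casq1, the skeletal-muscle form of the calcium store protein calsequestrin, stood at 0.97 and 0.44 against 2.10 and 1.86 (+1.27 ± 0.22). The secreted protein Vwc2 (+1.68 ± 0.38; normexp, +0.84), the cystatin-family gene Csta3 (+1.18 ± 0.14; normexp, +0.64), the leukocyte protease inhibitor Slpi (+0.98 ± 0.12) and the neurotrophic factor Gdnf (+1.19 ± 0.24) were the others reported, beside Retnlg and Usp18 given above. Gdnf rests on its brightest probe, since the mean of its probes gave -0.74, and a second probe of Slpi gave +0.23.

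**Figure D3:**
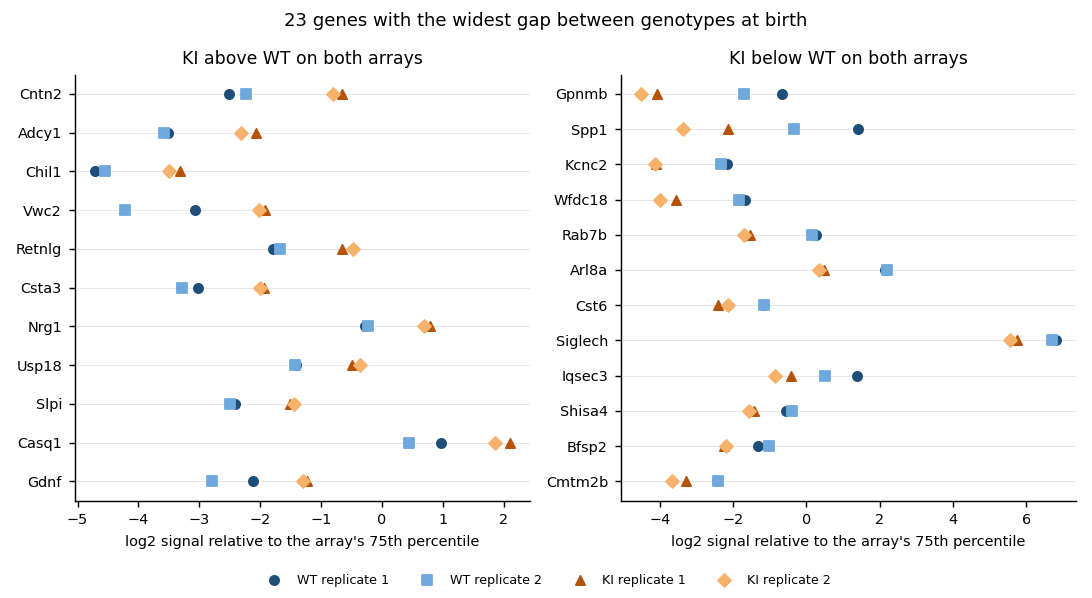
The 23 reported genes with the widest gap between genotypes among those well above background on all 4 arrays, 11 higher and 12 lower in KI, are plotted by their log2 signal relative to the array's 75th percentile on each of the 4 birth arrays. Gpnmb and Spp1 have the widest gaps, with arrays of WT more than 1 unit apart, while Arl8a, Rab7b and Kcnc2 have tight pairs.

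A gene can also be seen in only 1 genotype. Both KI arrays and no WT array were well above background for 145 genes (0.94%), and both WT arrays and no KI array for 16 (0.104%). The share of probes above background was itself higher on the KI arrays. For such genes the mean of the detected genotype was set against the lowest signal that counts as above background, which gives a lower bound. Ctse, an aspartic protease of the endosome, measured -6.84 and -7.00 in WT, not well above background, and -2.99 and -2.44 in KI, at least 4.53-fold higher. Normexp gave +0.96 for it and did not reach that bound. The next bounds were 2.38-fold for Tph1, the first enzyme of serotonin synthesis, 2.34-fold for the sodium pump subunit Atp1a4, 2.22-fold for the hyaluronan synthase Has3 and 2.14-fold for the interferon-inducible Ifi209. Normexp gave +0.29, +0.35, +0.35 and +0.23 for these 4, short of each bound.

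In the other direction, Pthlh, which encodes parathyroid hormone-related protein, was detected on both WT arrays alone, at -2.74 and -3.82, and was at least 3.68-fold lower in KI. The carboxylesterase Ces1d was at least 3.42-fold lower, the methyltransferase Bhmt 2.28-fold and Tmem132c 2.17-fold. Normexp gave -0.61 for Pthlh, -0.58 for Ces1d, -0.43 for Bhmt and -0.47 for Tmem132c, short of each bound. Among the alternatives run, Ces1d and Tmem132c passed the test only without KI replicate 1.

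Sarcomere genes had no common direction. Of 52 tested, 16 were higher (30.8%) and 11 lower (21.2%) in KI without overlap, against 16.7% and 15.3% of all genes, and the median was +0.05. Myl4, the atrial and fetal essential light chain, stood at 6.73 and 6.53 in WT and at 7.61 and 7.22 in KI (+0.78 ± 0.18), and a second probe gave +0.90. The slow skeletal troponin T gene Tnnt1, a paralogue of Tnnt2, stood at 4.31 and 4.16 against 4.79 and 4.81 (+0.57 ± 0.12), and the fast skeletal gene Tnnt3 differed by +0.42 ± 0.14. The actin-binding repeat protein Xirp2 differed by +0.61 ± 0.12. Mybpc1, the slow skeletal myosin-binding protein, stood at -3.85 and -4.002 against -4.67 and -4.83, and normexp gave -0.18.

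Among skeletal muscle markers, 4 of 10 were higher (40%) and 1 lower (10%) without overlap, against 16.7% and 15.3% of all genes, with a median of +0.31. Mylpf, the fast skeletal regulatory light chain, differed by +0.52 ± 0.15, but its second detected probe gave -0.02. Of 9 atrial markers, 2 were higher (22.2%) and 1 lower (11.1%) without overlap, near the shares of all genes. Nppa, the atrial natriuretic peptide, stood at 8.14 and 8.37 in WT and at 8.29 and 8.53 in KI, with overlap. Sln, the atrial regulator of the calcium pump, stood at 1.16 and 2.14 against 3.08 and 1.32, so KI replicate 1 alone was high. The secreted protein Dkk3 lay lower, at 2.67 and 3.15 against 2.19 and 2.15.

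Calcium handling genes had 8 higher (23.5%) and 4 lower (11.8%) of 34 without overlap, near the 16.7% and 15.3% of all genes, and a median of +0.08. Besides Casq1, the sodium-calcium exchanger Slc8a1 differed by +0.47 ± 0.15. Cardiac ion channels had 10 higher (27.8%) and 8 lower (22.2%) of 36. Kcnd2, a pore subunit of the transient outward potassium current, stood at -0.54 and -0.58 in WT and at -1.47 and -1.29 in KI (-0.81 ± 0.13), while Kcna4, another outward channel, differed by +0.50 ± 0.14. The T-type calcium channel Cacna1g stood at 0.95 and 0.83 against 1.62 and 1.40, and the potassium channel subunit Kcne1 at 5.002 and 4.94 against 4.38 and 4.68. The sodium channel subunit Scn4b was detected in KI alone, at least 1.74-fold higher (normexp, +0.13), and is in the count of higher channels.

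Cardiac stress and fetal genes, which mark a failing adult heart, had 8 higher (22.2%) and 6 lower (16.7%) of 36 without overlap, against 16.7% and 15.3% of all genes. Their median was +0.07, and Spp1 was the lowest. Neurohormonal genes had 8 higher (24.2%) and 9 lower (27.3%) of 33. The endothelin receptor Ednrb stood at 0.77 and 0.77 in WT and at 0.18 and -0.04 in KI, while the ligand Edn1 stood at -0.26 and 0.05 against 0.58 and 0.44. The adrenergic receptor Adra1d differed by +0.58 ± 0.13. The renin gene Ren1, which has a near-identical copy in some mouse strains, was detected in KI alone, at least 1.76-fold higher (normexp, +0.22). It is in the count of higher neurohormonal genes.

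Cardiac transcription factors had 9 higher (26.5%) and 1 lower (2.94%) of 34 without overlap, against 16.7% and 15.3% of all genes, with a median of +0.03 (+0.15 without KI replicate 2). Iroquois factors, which pattern the ventricle and its conduction system, made up 4 of the 5 in this list with the smallest p. Another Iroquois factor, Irx4, was counted with the ventricular markers, and its genotypes overlapped (+0.15 ± 0.15). Irx3 stood at 2.82 and 2.87 in WT and at 3.48 and 3.36 in KI (+0.57 ± 0.12), Irx5 at -1.52 and -1.49 against -0.74 and -0.95 (+0.66 ± 0.13). Irx1 (+0.43 ± 0.15) and Irx2 (+0.54 ± 0.21) also did not overlap, and nor did Hand1 (+0.31 ± 0.12). Nkx2-5, a core cardiac factor, differed by +0.20 ± 0.13.

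The lists of energy metabolism had small medians. Of 58 respiratory chain genes, 17 were lower and 0 higher without overlap (29.3%, against 15.3% of all genes), but the median was -0.07. With quantile normalization 10 were lower and 10 higher, and the median was -0.02. The list's median deviation was +0.107 and -0.029 on the WT arrays and -0.009 and -0.047 on the KI arrays, so WT replicate 1 stood apart. Cox6c, a subunit of cytochrome oxidase, stood at 7.69 and 7.52 in WT and at 6.85 and 7.03 in KI (-0.66 ± 0.14). Cyc1 differed by -0.37 ± 0.21, and the succinate dehydrogenase subunits Sdha, Sdhb and Sdhd by -0.19, -0.17 and -0.18. Of 42 fatty acid oxidation genes, 9 were lower (21.4%, against 15.3% of all genes) and 0 higher without overlap, with a median of -0.07. Here too WT replicate 1 stood apart, with median deviations of +0.098 and -0.036 on the WT arrays and -0.071 and +0.011 on the KI arrays. The fatty acid carrier Fabp3 stood at 8.10 and 8.03 against 7.89 and 7.46, and the mitochondrial carrier Ucp3 at 1.26 and 1.08 against 0.78 and 1.03. Glycolysis and glycogen genes had 4 higher (11.8%) and 8 lower (23.5%) of 34, with a median of -0.05 (+0.02 with quantile normalization).

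Cell division genes were low on 1 KI array only. Their median deviation was +0.19 and +0.02 on the WT arrays, +0.23 on KI replicate 1 and -0.45 on KI replicate 2. The median difference was -0.21, but +0.15 without KI replicate 2 and -0.54 without KI replicate 1. Of 69 members, 3 were lower without overlap (4.35%, against 15.3% of all genes). Mcm6 of the DNA-unwinding complex was at 3.85 and 3.81 in WT and at 3.51 and 2.74 in KI. Kif4, a chromosome-bound kinesin, and Racgap1, which acts in cytokinesis, were the others without overlap (-0.45 ± 0.22 and -0.26 ± 0.17). Mybl2 (-0.34 ± 0.22) and Cdt1 (-0.35 ± 0.24) overlapped. KI replicate 2 was also the array with the highest Y-linked levels, and its share in these values was not tested.

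The other functional lists had medians near 0. Extracellular matrix genes had 10 higher (18.2%) and 18 lower (32.7%) of 55 without overlap, against 16.7% and 15.3% of all genes, with a median of -0.04. The microfibril protein Mfap5 stood at 2.997 and 3.02 in WT and at 2.57 and 2.44 in KI, and the collagen-binding proteoglycan Fmod (-0.50 ± 0.16) and Col5a2 (-0.42 ± 0.14) were lower too. Col11a1 lay higher, at -0.22 and -0.27 against 0.17 and 0.25. Ribosomal protein genes had a median of +0.02 with 3 higher (5.56%) and 4 lower (7.41%) of 54. The largest differences among them were -0.86 ± 0.20 for Rpl37, at the edge of detection (normexp, -0.18), and -0.86 ± 0.42 for Rps20, which was low on KI replicate 2. Medians were +0.03 for hypoxia genes (+0.20 without KI replicate 1) and +0.07 for integrated and endoplasmic reticulum stress genes.

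The remaining marker lists were counted in the same way. Medians were -0.03 for endothelial, -0.03 for fibroblast, -0.02 for mural, +0.03 for adipocyte and +0.05 for lung and airway markers. Epicardial and mesothelial markers had a median of +0.26 (+0.10 without KI replicate 1) with 6 of 12 higher (50%) and 1 lower (8.33%), against 16.7% and 15.3% of all genes, led by the keratin Krt19, at -0.45 and -0.37 in WT and at -0.09 and 0.92 in KI. Schwann cell and nerve markers had 6 higher (42.9%) and 2 lower (14.3%) of 14, and the higher count includes Kcna1, detected in KI alone. Gap43, a protein of growing axons, stood at -0.61 and -0.41 against -1.36 and -1.87, and the neuronal Stmn2 differed by -0.47 ± 0.14. Sox10, the glial lineage factor, lay higher at -4.16 and -3.85 against -3.23 and -3.01 (normexp, +0.27). Liver markers, which the ventricle should lack, were led by Serpina1a, at 0.15 and -1.67 in WT and at -2.07 and -4.22 in KI, and by albumin (Alb), at -0.56 and -2.50 against -2.25 and -4.38 (normexp, -1.46 and -1.06). Both were highest on WT replicate 1, as were Spp1, Gpnmb and Mmp12, and their part in those values was not tested.

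The wide gaps were also counted by their place relative to Tnnt2 on chromosome 1. Within 75 tested genes on each side, 14 of 150 had a gap over 0.5 (9.33%), against 13 of 718 on the rest of the chromosome (1.81%) and 189 of 14555 elsewhere (1.30%). They included Ctse, Cntn2, Chil1 and Ren1 above WT and Rab7b, Arl8a and Shisa4 below it. Of the 14, Ctse, Ren1 and Ptgs2 were well above background on no WT array, and Prg4 on only 1 KI array. Their gaps were therefore measured partly below detection. At any gap, 45.3% of genes in the window had no overlap, against 29.9% on the rest of the chromosome and 31.9% elsewhere. Among these window genes were Mcm6, at its edge, and Fmod, which are counted above with cell division and extracellular matrix genes.

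**Figure D4:**
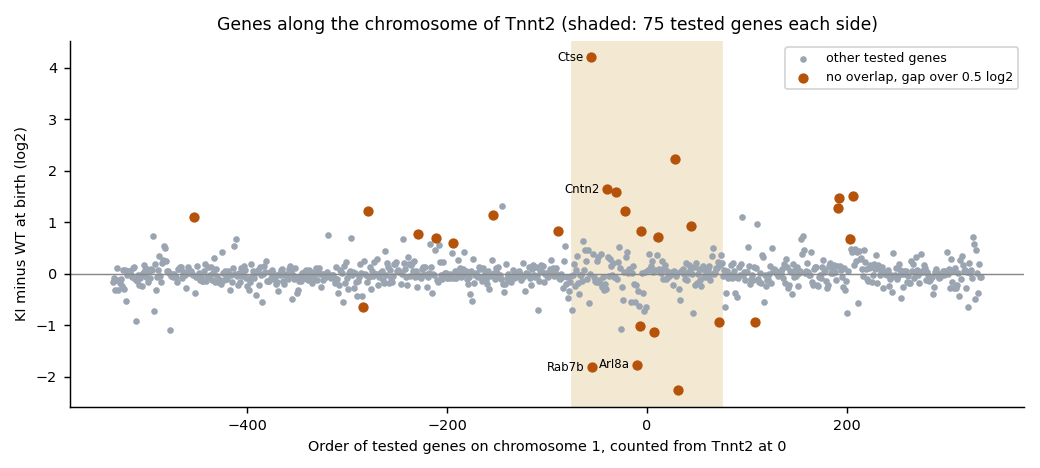
Tested genes of chromosome 1 are plotted in their order from Tnnt2 at 0 against KI minus WT at birth in log2 units, with the 75 genes on each side shaded and the genes with a gap over 0.5 in orange. Of the genes in the shaded window, 8 lie above WT and 6 below with such a gap.

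The 4 arrays at 1 week, which did not enter the choice of these genes, showed how far the birth differences recurred. For 3 of these arrays the scanner files and the value table name different samples, so both records are set out, and no array was assigned by its values. By the scanner files, 0 of the 23 reported genes with the widest gaps differed without overlap in the birth direction, against backgrounds of 20.1% of genes higher and 19.9% lower. In the value table's record 16 did, 7 of 11 higher and 9 of 12 lower, against backgrounds of 20% higher and 17.7% lower. In that record Gpnmb differed by -3.30, Spp1 by -3.36, Kcnc2 by -2.01, Rab7b by -1.52, Casq1 by +2.68, Chil1 by +2.15, Gdnf by +1.63 and Cntn2 by +1.47. The blood-cell genes Retnlg and Csta3 and the interferon gene Usp18 overlapped there, at -0.21, -0.33 and -0.07. By the scanner files Gpnmb differed by -1.43, Spp1 by -0.63, Kcnc2 by +0.22 and Rab7b by +0.12. Casq1 differed by -0.23, Chil1 by -0.17, Gdnf by -0.08 and Cntn2 by -0.07 in the scanner-file record, and all of these overlapped.

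**Figure D5:**
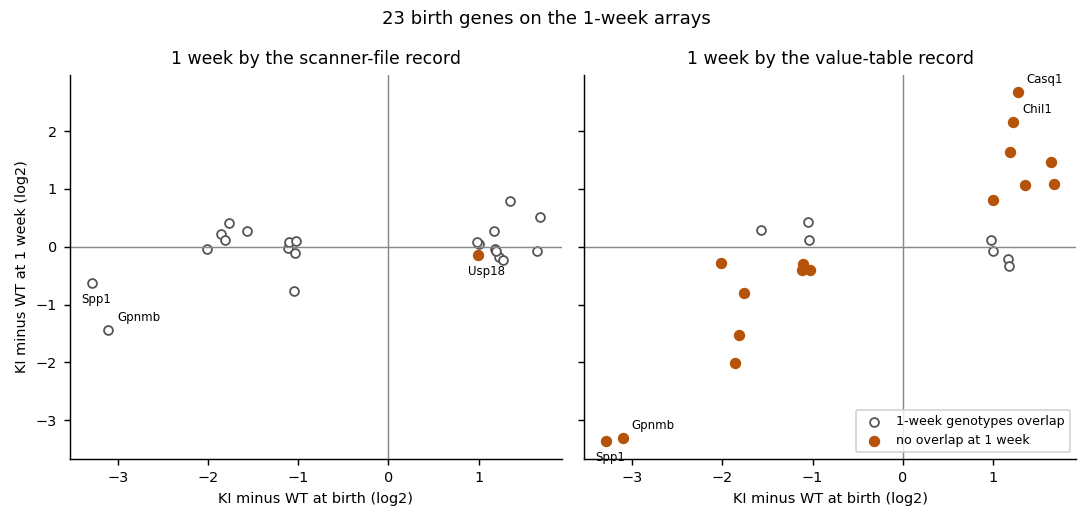
Each of the 23 genes is plotted by KI minus WT at birth against KI minus WT at 1 week, both in log2 units, with the 1-week samples taken from the scanner files on the left and from the value table on the right. Filled points have no overlap at 1 week: by the scanner files 1 gene, in the opposite direction, and by the value table's record 16 genes, all in the birth direction.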

How the data were processed

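RNA of pooled ventricle at birth was hybridised to 4 single-colour Agilent arrays (2 WT, 2 KI). Per the file headers, the deposited scanner files held the processed intensity of each spot, background-subtracted and detrended, with no normalization between arrays, and flags (other) coded 0 and 1. The headers gave Feature Extraction 11.0.1.1 and an array annotation on build mm9, and the submitters' processing notes 9.1. The value table, also deposited, gave this intensity per probe and named the same birth arrays at a relative tolerance of 0.0001.

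From 62976 features, 56599 probes without control or outlier spots were kept, and signals were log2 transformed and set to each array's 75th percentile. RefSeq accessions (GRCm38.p6) named 32992 probes of 22911 genes, and 23607 probes had no symbol. The brightest probe stood for a gene. A gene was tested if well above background on both arrays of a genotype, which left 15426. Groups were compared with limma 3.58.1 (lmFit, eBayes; R 4.3.3) on the 4 birth arrays alone, with Benjamini-Hochberg adjustment over all genes and a threshold of 0.05. The fit was also run on simulated data, and how many changed genes it found there is not reported here. Gene order on chromosome 1 left out genes placed off the assembled chromosome.

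The genes named were Tnnt2, the 12 per direction with the widest gap among genes above background on all 4 arrays, up to 5 per direction detected in 1 genotype alone, and up to 5 of each list with the smallest p, without clone, predicted, olfactory, vomeronasal, immunoglobulin or histone genes. No gene passed the threshold to enter as such, and not every gene this rule takes is reported here. Igtp and Oas1a were chosen after their values were seen, for their promoters. The members and lists were chosen with earlier results of these data known.

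Alternatives were normexp background correction with an offset of 50, quantile normalization, the value table, no filter, detection on all 4 arrays, the mean of all probes, an intensity trend, all 8 arrays, a replicate block and each array left out. Normexp used the raw median intensity of the deposited files in place of the planned mean. Same-numbered WT and KI arrays deviated together (r = 0.32), but with 2 pairs this does not establish pairing.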

Additional observations from a re-analysis of the deposited data

Results flagged for a closer look

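Of the 23 reported genes with the widest gaps at birth, Usp18 lay in opposite directions at the 2 ages on every array by the scanner files, and this difference between ages was not tested. Usp18 was +1.00 at birth and -0.14 at 1 week, where it stood at -1.44 and -1.45 in WT and at -1.65 and -1.53 in KI. By the value table its genotypes overlapped at 1 week.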

How the results depend on the processing

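Over 13 alternatives, 1475 of 1490 values of the named genes other than Tnnt2 kept their direction and side of the threshold, 12 newly passed and 3 turned: Gdnf (-0.74, mean of all probes), Myl2 (+0.0099, quantile normalization) and Sln (-0.33 without KI replicate 1, within a range of -0.33 to +1.43 with 1 array left out). Tnnt2 turned to +0.045 with quantile normalization. Genes past the threshold numbered 2 with normexp background (Arl8a and Rab7b), 4 with an intensity trend (these, Ctse and Siglech) and 0 to 12 with 1 array left out. Without KI replicate 1 there were 12, among them Ctse, Wfdc18, Gzma, Ces1d and Tmem132c, and without KI replicate 2 there was 1, Ctse. The fit with a replicate block, in which same-numbered arrays were taken as pairs, called 0 genes, with 1553 at an unadjusted p below 0.05 in limma, against 946 without the block. The remaining alternatives called 0.

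Genes with both KI arrays below both WT arrays were 6430 with no filter. Counts with a gap over 0.5 were 32 higher and 25 lower with normexp, 310 and 229 with no filter, and 83 and 51 above background on all 4 arrays. With 1 array left out, genes without overlap were 4682 to 5909 higher and 4389 to 5908 lower, and with a gap over 0.5 they were 313 to 500 higher and 202 to 453 lower, since a single array overlaps less. Normexp gave list medians of +0.24 for interferon-stimulated and +0.35 for neutrophil genes. With 1 array left out, medians were +0.26 to +0.35 for interferon-stimulated, +0.49 to +0.81 for neutrophil, -0.54 to +0.15 for cell division and -0.15 to -0.011 for respiratory chain genes. Of all list medians under the alternatives, 282 moved by less than the spread between arrays and 48 by more. With normexp the dim genes Adcy1 and Chil1 moved from +1.35 and +1.22 to +0.74 and +0.33. The bright genes Myl4 and Cox6c moved from +0.78 and -0.66 to +0.78 and -0.62. How such shifts varied with signal over all genes was not counted.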
